A study of Mus musculus with 2 samples.

Results

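The genes described here are the vascular endothelial growth factor (VEGF) ligands Vegfa, Vegfb, Vegfc and Vegfd, the receptor kinases Kdr, Flt1 and Flt4, and the co-receptors Nrp1 and Nrp2. They were taken by gene symbol, and all 9 were found among the 34097 genes listed in each library. Single-cell RNA was counted as unique molecular identifiers (UMIs, 1 per captured RNA molecule) on the 10x Genomics platform. The samples were 2 mouse lung cancer xenografts labelled as LLC, the mouse Lewis lung carcinoma line. One library came from a tumour labelled control, and 1 came from a tumour labelled with a short hairpin RNA that knocks down Gfpt2, an enzyme of hexosamine synthesis. They are called the control and knockdown libraries. The labels give no mouse strain, age, number of animals, hairpin sequence or clone, and the control's vector is not stated. With 1 library in each group, a difference between them could not be set against a spread between animals. All intervals are 95% intervals that cover counting error only, and no p-value is given.

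VEGF ligands are secreted proteins that drive the growth and leakiness of vessels. Vegfa acts through Kdr, the main signalling receptor of blood endothelium, and is also bound by Flt1, which takes up much ligand and signals weakly. Vegfb binds Flt1, while Vegfc and Vegfd act on Flt4, the receptor of lymphatic endothelium. The neuropilins Nrp1 and Nrp2 bind VEGF ligands beside these kinases and also serve the class 3 semaphorins. Vegfa transcription is raised when oxygen is low, through hypoxia-inducible factors (HIF).

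HIF binds DNA at a short core, searched here as ACGTG and GCGTG on both strands in the 250 bases before each gene's start. The sequences are RefSeq's, on mouse build GRCm38.p6, and all 9 genes had an entry. Of 32851 such windows in the table, 16.6% held ACGTG, 28.2% held GCGTG and 38.6% held either. The windows of Vegfa and its receptors Kdr and Flt1 are shown, because Vegfa is the member whose level followed the hypoxia genes in the cells described below. They run 5′ to 3′ along the gene's strand, with any match in capitals. Vegfa has 2 starts in the table. The window of the upstream start (chr17:46032378-46032627, minus strand) had no match, which says only that these letters are not in this stretch. The window of the downstream start (chr17:46025164-46025413, minus strand) had 1 match to each core, 218 and 211 bases before that start. This window lies past the upstream start along the gene, so RNA begun at the upstream start can run through it. Whether it acts as a promoter was not tested. The Kdr window (chr5:75978456-75978705, minus strand) had 2 matches to GCGTG, 131 and 89 bases before the start. The Flt1 window (chr5:147726012-147726261, minus strand) had 1 match to GCGTG, on the opposite strand (printed as CACGC), 184 bases before the start. Of the windows not shown, Vegfb and Nrp2 had 2 matches to GCGTG each and Nrp1 had 1, and Vegfc, Vegfd and Flt4 had none.
Vegfa, upstream start: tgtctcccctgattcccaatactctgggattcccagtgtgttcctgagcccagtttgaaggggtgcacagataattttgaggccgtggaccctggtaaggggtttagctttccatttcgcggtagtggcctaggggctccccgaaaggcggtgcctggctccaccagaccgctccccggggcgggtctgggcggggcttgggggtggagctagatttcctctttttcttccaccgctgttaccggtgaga
Vegfa, downstream start: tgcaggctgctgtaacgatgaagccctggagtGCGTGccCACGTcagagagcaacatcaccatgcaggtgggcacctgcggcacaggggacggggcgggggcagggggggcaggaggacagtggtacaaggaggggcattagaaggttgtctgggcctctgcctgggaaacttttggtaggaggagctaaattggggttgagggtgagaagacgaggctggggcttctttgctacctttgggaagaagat
Kdr: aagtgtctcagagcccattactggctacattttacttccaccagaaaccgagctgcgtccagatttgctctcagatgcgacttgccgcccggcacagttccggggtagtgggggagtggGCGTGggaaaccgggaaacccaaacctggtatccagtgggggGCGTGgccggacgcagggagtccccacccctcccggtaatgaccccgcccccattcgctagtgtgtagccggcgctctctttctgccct
Flt1: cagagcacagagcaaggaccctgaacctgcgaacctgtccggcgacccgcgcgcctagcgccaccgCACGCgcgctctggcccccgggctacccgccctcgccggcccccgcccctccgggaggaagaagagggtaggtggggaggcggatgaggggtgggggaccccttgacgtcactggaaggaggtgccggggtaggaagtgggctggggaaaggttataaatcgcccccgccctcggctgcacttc

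After filtering, 10662 control cells with 138902827 UMIs and 11450 knockdown cells with 118800887 UMIs were kept. Levels are counts per 1000000 UMIs (CPM), the summed UMIs of a gene over all UMIs of the same cells. The main classes were set by marker genes. Tumour-like cells had no UMI of Ptprc (the leukocyte antigen CD45), Lyz2 under 5 per 10000 UMIs and at least 5000 UMIs, and numbered 4982 and 5215. Macrophages had at least 10 UMIs of the complement genes C1qa, C1qb and C1qc per 10000, and numbered 3996 and 4580. T cells had at least 2 UMIs of Cd3d, Cd3e and Cd3g, and numbered 794 and 662. Gfpt2, the targeted gene, had 211 UMIs (2.04 CPM) in the control tumour-like cells and 56 UMIs (0.636 CPM) in those of the knockdown library. Epithelial genes did not mark the tumour-like cells, since Krt8, Krt18 and Epcam had 9, 1 and 3 UMIs in the control and 8, 0 and 4 in the knockdown library. Hmga2, a chromatin protein on the tumour marker list, stood at 220.2 and 218 CPM, and Dcn, a matrix gene best known in fibroblasts, at 1026 and 1078 CPM. The 8 fibroblast or pericyte markers summed to 2524 and 2839 CPM in these cells and the 7 LLC markers to 722 and 678 CPM, so fibroblasts within the gate cannot be told apart from LLC cells by these lists. Xist, the RNA of the inactive X chromosome, stood at 2.86 and 4.04 CPM in tumour-like cells, against 536 and 525 CPM in the macrophages poor in tumour RNA that are described next.

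Tumour-enriched RNA was also found in the other gates, beside several of the members. The summed level of 20 genes chosen as enriched in tumour-like cells over a part of the macrophages was used to find droplets at 25% or more of the tumour-like median. These genes include Dcn, Sparc, Col6a1 and Serpinf1, which fibroblasts also express, so tumour RNA here means RNA like that of the tumour-like gate. Such droplets, called rich in tumour RNA, made up 9.03% of the macrophage gate in the control library (361 cells) and 29.6% in the knockdown library (1354 cells). Their median depth was 990 and 3233.5 UMIs, and whether they hold 2 cells, or 1 cell with free RNA of another, was not tested. In the T cell gate they made up 12.3% and 13.6%. Hmga2 reached 204 and 231 CPM in the macrophages rich in tumour RNA, against 12.5 and 15.2 CPM in those poor in it. Macrophage values are therefore given for all cells of the gate and for the 3635 and 3226 cells poor in tumour RNA. T cell values are also given for the 588 and 485 cells poor in tumour RNA and outside the macrophage gate, called cleaned T cells. Both sets were chosen for a low level of these 20 genes. Levels of tumour RNA worked out from the same genes may thus be too low for them. The tumour-like gate held a few endothelial cells, so its levels are given without them, for 4976 and 5204 cells. Folds between classes, shares of cells, states and hypoxia bins were taken over the whole tumour-like gate.

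The 4 ligands lay mostly in tumour-like cells, and the receptor kinases mostly outside them. Tumour-like cells held 78.1% of all Vegfa UMIs of the control library and 74% of those of the knockdown library. For Vegfb their share was 86.5% and 84.9%, for Vegfc 88.6% and 82%, and for Vegfd 89.3% and 85.7%. Nrp2 lay in the same cells, with 83.8% and 80.9% of its UMIs. Nrp1 was divided between tumour-like cells (48.6% and 42.7%) and macrophages poor in tumour RNA (42.2% and 41.4%). Of the kinases, Kdr had 92 UMIs over all control cells and 105 over all knockdown cells. An endothelial gate (Cdh5, Emcn, Cldn5 and Plvap) took 8 control and 16 knockdown cells, and these held 43.5% and 56.2% of the Kdr UMIs. A further 45.7% and 28.6% lay in macrophages poor in tumour RNA, at a far lower level per cell. Flt1 lay mostly in macrophages poor in tumour RNA, with 60.7% and 44.7% of its 560 and 365 UMIs, and in the endothelial gate, with 24.3% and 35.6%. Flt4 had 20 and 38 UMIs in all. Fewer cells of a class and less RNA per cell both lower such a share.

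**Figure D1:**
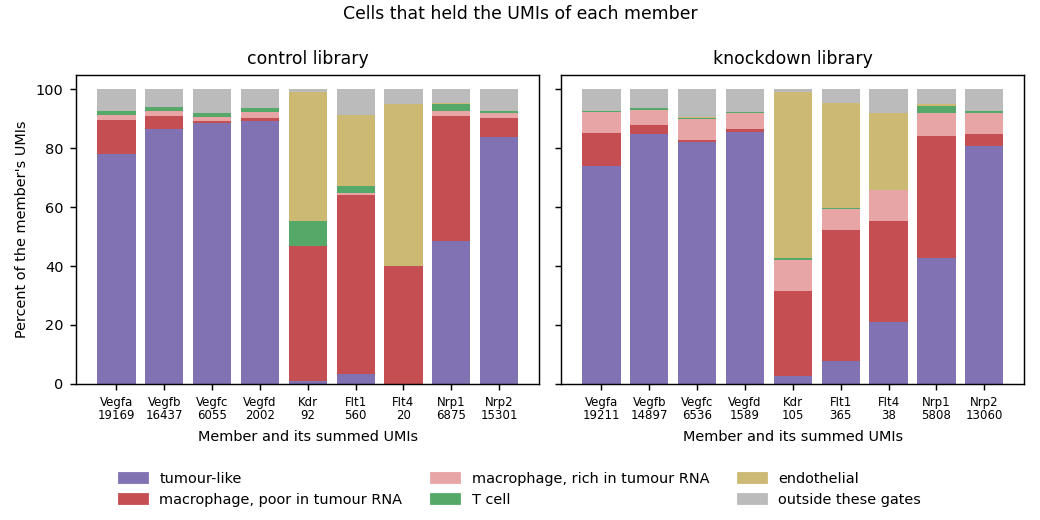
Percent of each member's UMIs (vertical axis) by the cells that held them, for the control and knockdown libraries; the summed UMIs stand under each name and a cell is counted once. The 4 ligands and Nrp2 lie mostly in tumour-like cells (78.1% of the control Vegfa UMIs), and the kinases Kdr and Flt1 mostly in endothelial cells and macrophages.

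Vegfa, the main growth factor of blood vessels, was present in tumour-like cells and macrophages alike. In tumour-like cells it stood at 145 CPM (142 to 147) for control cells and 162 CPM (159 to 164) for knockdown cells (log2 ratio 0.16, 0.13 to 0.19). All cells of the macrophage gate gave 108 and 165 CPM (log2 ratio 0.62, 0.55 to 0.69). Macrophages poor in tumour RNA gave 104 CPM (100.2 to 109) and 149 CPM (143 to 155) (log2 ratio 0.51, 0.42 to 0.60). Vegfa was thus higher in the knockdown library in both classes. In the control library its level was 1.39-fold (1.32 to 1.45) higher in tumour-like cells than in these macrophages, and in the knockdown library 1.09-fold (1.04 to 1.14). Cleaned T cells had less, 33.6 CPM (25.7 to 43) and 32.6 CPM (23.9 to 43.5), and these intervals overlap. At the level of the 20 tumour-enriched genes in those T cells, tumour RNA alone would give 10.7 and 8.90 CPM of Vegfa, and in macrophages poor in it 5.85 and 7.16 CPM.

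Shares of cells with a Vegfa UMI were compared with every cell thinned to 1 depth. Among tumour-like cells thinned to 5000 UMIs, 46% (44.6 to 47.4) of control and 50.1% (48.8 to 51.5) of knockdown cells had one, against 79.7% and 80.0% without thinning. Among macrophages poor in tumour RNA thinned to 2000 UMIs it was 16% (14.8 to 17.3) and 21.6% (20.1 to 23.2), against 30.1% and 34.1% without thinning. In both classes the share at equal depth was higher in the knockdown library. Cleaned T cells at 2000 UMIs had 4.72% (2.90 to 7.19) and 6.07% (3.69 to 9.32). Cells with too few UMIs were left out, 372 control and 576 knockdown macrophages and 164 and 172 T cells. Median depths were 18743.5 and 14711 UMIs for tumour-like cells, 5561 and 4176 for the macrophages and 2648.5 and 2498 for the T cells.

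Vegfa was higher in cells with more RNA of other hypoxia genes, in both libraries. Cells of at least 5000 UMIs were put in 5 bins of equal size over both libraries, by the summed level of 20 known HIF targets without Vegfa, such as the glucose transporter Slc2a1 and the carbonic anhydrase Car9. Between the lowest and highest bins of tumour-like cells Vegfa went from 81.6 to 246 CPM in the control, 3.01-fold (2.85 to 3.19), and from 95.3 to 246 CPM in the knockdown, 2.58-fold (2.41 to 2.76). Macrophages poor in tumour RNA went from 20.5 to 236 CPM in the control, 11.5-fold (8.94 to 15.1), and from 55.1 to 293 CPM in the knockdown, 5.32-fold (4.21 to 6.81). For these macrophages the log2 ratio between libraries was 1.42 (0.94 to 1.92) in the lowest bin, 0.92, 0.42 and 0.52 in the next 3, and 0.31 (0.15 to 0.47) in the highest. For tumour-like cells it lay between 0.21 and 0.23 in the lower 4 bins and at -0.0022 (-0.060 to 0.056) in the highest. The median list level was 8.11 and 8.03 per 10000 UMIs in the lowest macrophage bin of the control and knockdown libraries, and 49.1 and 46.9 in the highest. A bin is a range of a score and not a cell type, and the lowest macrophage bin rests on 65 and 82 Vegfa UMIs. Tumour RNA alone would give that bin 5.12 and 6.12 CPM.

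**Figure D2:**
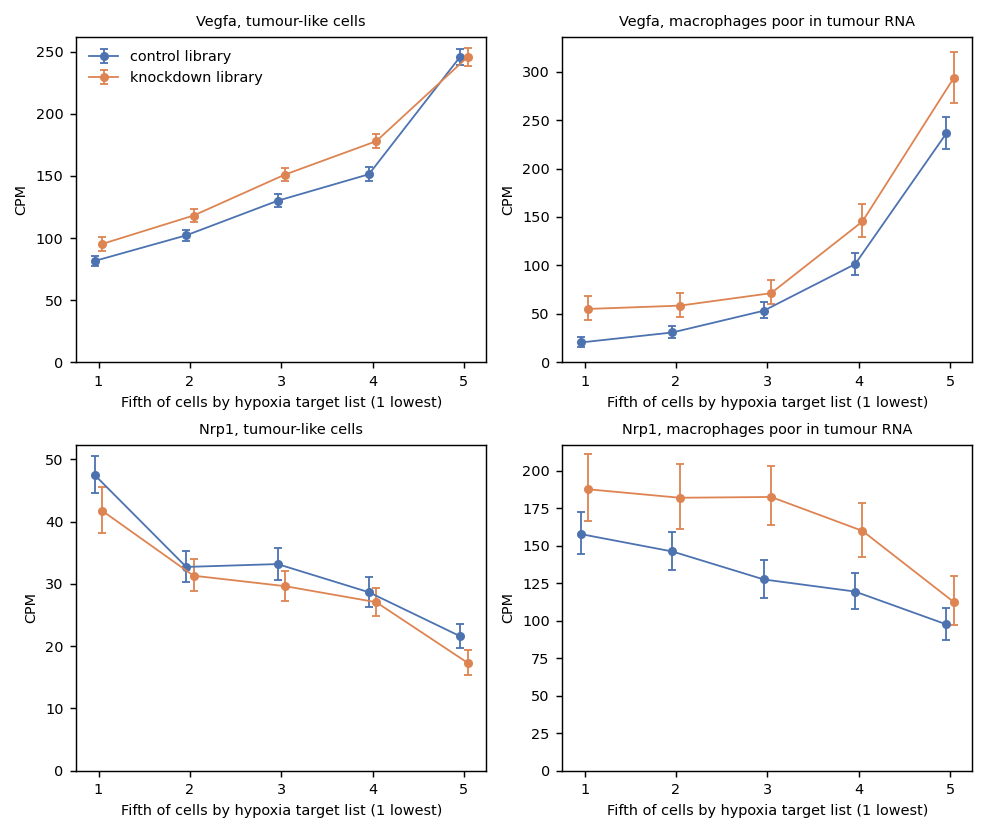
Level (CPM, vertical axis, with 95% counting intervals) of Vegfa and Nrp1 in 5 bins of cells by the summed level of 20 hypoxia targets (1 lowest, 5 highest), in tumour-like cells and in macrophages poor in tumour RNA of each library. Vegfa reaches 246 CPM in the highest tumour-like bin of the control library and 293 CPM in the highest macrophage bin of the knockdown library, while Nrp1 is lower in the highest bin than in the lowest in each class and library.

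The median ratio of the hypoxia targets was near 0 in tumour-like cells and macrophages poor in tumour RNA, with single targets on both sides. In the former 12 lay above 0 and 7 below, and in the latter 11 and 9. In tumour-like cells 0 of the 19 with at least 100 UMIs in 1 library differed by 1.5-fold, with a median log2 ratio of 0.033, where 2.95% of the 12359 genes so counted differed by that much and their median was 0.041. In macrophages poor in tumour RNA it was 0 of 20, with a median of 0.040, beside 3% of 9861 genes and a median of -0.0010. At such shares a list this short may hold none, so these counts do not set the targets apart. Egln3, an oxygen-sensing prolyl hydroxylase, had the highest ratio of the list in both: 65.3 and 83.9 CPM in tumour-like cells (0.36, 0.31 to 0.41) and 24.3 and 34.6 CPM in the macrophages (0.51, 0.33 to 0.69). P4ha1, a collagen prolyl hydroxylase, was next in tumour-like cells at 0.30. Among HIF genes and regulators, 0 of 6 passed 1.5-fold in either class. Hif1a, the oxygen-regulated HIF subunit, had log2 ratios of 0.13 in tumour-like cells and 0.32 in the macrophages.

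Vegfb lay mostly in tumour-like cells and changed little with hypoxia level in them. Its level there was 137 CPM (135 to 139.7) in control and 144 CPM (141 to 146) in knockdown cells (log2 ratio 0.066, 0.031 to 0.10), where the median over all genes was 0.041. With median-of-ratios scaling the ratio was 0.024 and its interval held 0 (-0.011 to 0.058), as it did with Lyz2 at 0 (0.036, -0.029 to 0.10). The full macrophage gate had 43.4 and 58.2 CPM, a log2 ratio of 0.42 (0.30 to 0.54). Without the droplets rich in tumour RNA the order turned, to 33.8 CPM (31.3 to 36.3) and 29.7 CPM (27 to 32.7), a log2 ratio of -0.18 (-0.36 to -0.0094). From the lowest to the highest hypoxia bin of tumour-like cells Vegfb changed 0.917-fold (0.871 to 0.965) in the control and 0.963-fold (0.905 to 1.03) in the knockdown library. In macrophages poor in tumour RNA it changed 0.962-fold (0.725 to 1.28) and 1.33-fold (0.889 to 2.02). Over the full macrophage gate it changed 1.90-fold (1.53 to 2.39) and 3.03-fold (2.27 to 4.13). Cleaned T cells had 31.9 and 27.7 CPM, a log2 ratio of -0.21 (-0.83 to 0.40).

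Vegfc and Vegfd, the ligands of Flt4, had low counts in macrophages once droplets rich in tumour RNA were left out. Vegfc stood at 51.8 CPM (50.5 to 53.2) in control and 61 CPM (59.3 to 62.6) in knockdown tumour-like cells (log2 ratio 0.23, 0.18 to 0.29). In the full macrophage gate it had 132 UMIs (5.54 CPM) and 559 UMIs (25.7 CPM), a log2 ratio of 2.21 (1.94 to 2.50). In macrophages poor in tumour RNA 36 and 50 UMIs were left, 1.69 CPM (1.19 to 2.34) and 3.48 CPM (2.58 to 4.59), a log2 ratio of 1.04 (0.39 to 1.70). Tumour RNA at the level of the 20 tumour-enriched genes would bring 2.10 and 2.70 CPM of Vegfc to those cells. They were chosen for a low level of these genes, so the figures may be too low. The part of tumour RNA in the level and the ratio was not tested. Endothelial cells had 9 and 11 Vegfc UMIs, 115 CPM (52.5 to 218) and 94.6 CPM (47.2 to 169).

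Vegfd was lower in knockdown tumour-like cells, at 17.3 CPM (16.5 to 18.1) and 15.5 CPM (14.7 to 16.3) (log2 ratio -0.16, -0.26 to -0.056). Without 1 of the tumour states described below, that ratio was -0.036. Macrophages poor in tumour RNA had 20 and 13 UMIs of it, 0.940 CPM (0.574 to 1.45) and 0.904 CPM (0.482 to 1.55), beside 0.699 and 0.685 CPM from tumour RNA alone. In the full macrophage gate Vegfd had 2.65 and 4.97 CPM, and 43 of its 63 control UMIs and 95 of its 108 knockdown UMIs lay in droplets rich in tumour RNA.

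**Figure D3:**
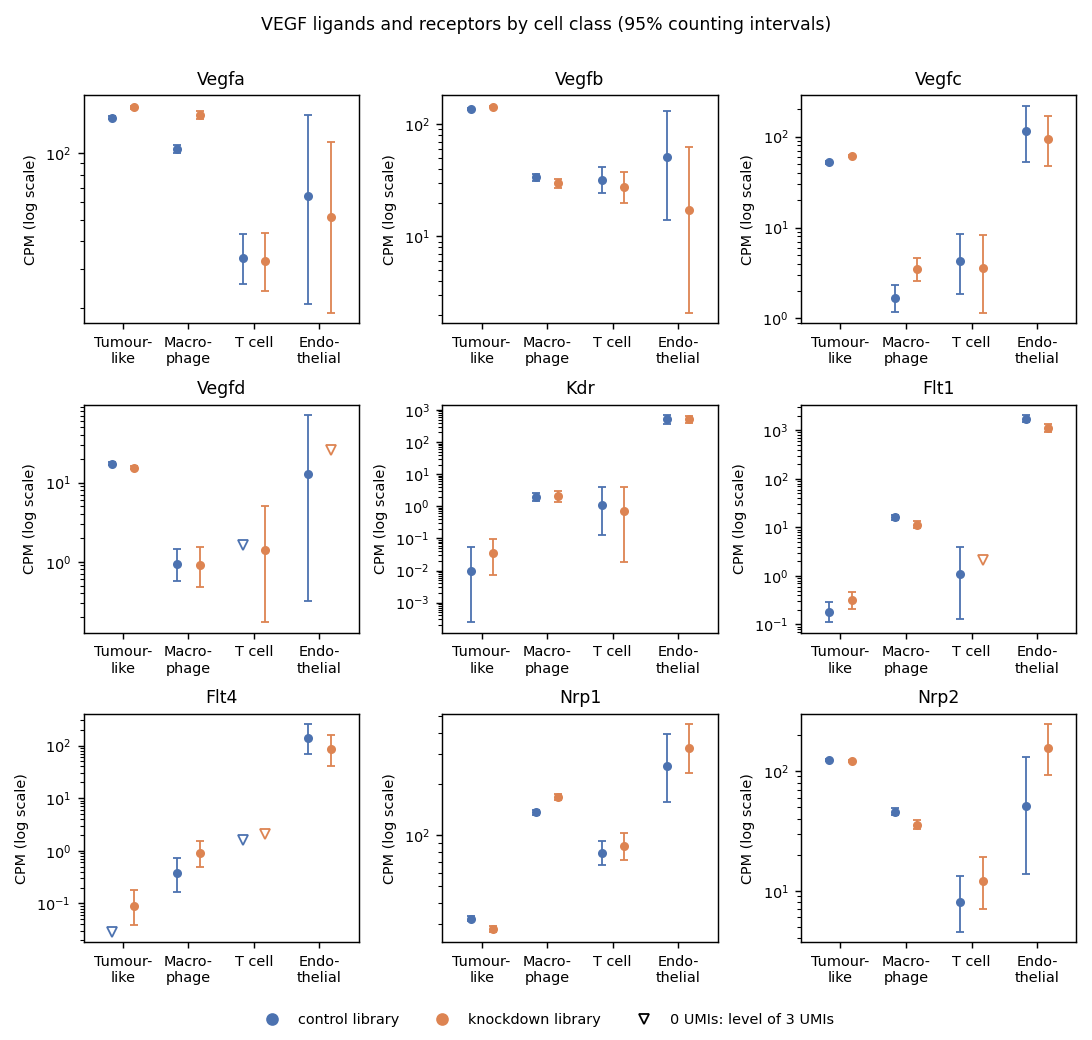
Level of each member (CPM, log scale) in tumour-like cells outside the endothelial gate, macrophages poor in tumour RNA, T cells poor in tumour RNA and outside the macrophage gate, and the endothelial gate, for each library; bars are 95% counting intervals and open triangles mark the level of 3 UMIs where none was counted. Vegfb, Vegfc and Vegfd are higher in tumour-like cells than in macrophages, Kdr reaches 511 and 507 CPM in endothelial cells, and Nrp1 is higher in macrophages than in tumour-like cells.

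The receptor kinases were highest in the few endothelial cells. Kdr stood at 511 CPM (365 to 695) in the control gate (40 UMIs) and 507 CPM (386 to 654) in the knockdown gate (59 UMIs), against 1 and 3 UMIs in all tumour-like cells outside it. Flt1 stood at 1736 CPM (1456 to 2053) from 136 UMIs in 8 of 8 control cells, and 1118 CPM (934 to 1327) with 130 UMIs over 10 of 16 knockdown cells (log2 ratio -0.64, -0.99 to -0.28). The summed level of 9 endothelial markers in those cells was lower in the knockdown library as well, at 11654 and 7472 CPM, with 9 of 9 detected in each. Some marker lists of other cells were higher there in the knockdown library. The 8 macrophage markers summed to 293.6 and 894 CPM (4 and 8 detected). The 8 fibroblast or pericyte markers summed to 306 and 1316 CPM (2 and 6 detected). The 7 tumour markers summed to 447 and 645 CPM (2 and 3 detected). The part of any of these in the Flt1 ratio was not tested. Flt4 had 11 UMIs in the control and 10 in the knockdown gate, 140.4 CPM (70.1 to 251) and 86 CPM (41.2 to 158). With so few cells these levels describe the cells caught and not the vessels of the tumours.

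Flt1 was also found in macrophages. Those poor in tumour RNA had 16 CPM (14.3 to 17.8) in the control (340 UMIs in 262 cells) and 11.3 CPM (9.67 to 13.2) in the knockdown library (163 UMIs in 126 cells). The log2 ratio was -0.50 (-0.77 to -0.22), and -0.77 (-1.03 to -0.51) over the full gate. At 2000 UMIs per cell, 3.06% (2.50 to 3.72) and 2.38% (1.83 to 3.03) of the former macrophages had a Flt1 UMI, with intervals that overlap, against 7.21% and 3.91% without thinning. Cleaned T cells at that depth had 0 of 424 (0% to 0.866%) and 0 of 313 (0% to 1.17%), and 2 of 588 and 0 of 485 without thinning. The 9 endothelial markers summed to 330 UMIs (15.5 CPM) in the same control macrophages, with 8 of 9 detected, and 409 UMIs (28.5 CPM) in the knockdown ones, with 9 of 9 detected. Pecam1, which macrophages also express, made up 290 and 366 of these, Cdh5 15 and 8, Plvap 1 and 5, and Tie1 0 and 2. The summed level of the list was thus mostly Pecam1, and the part of endothelial RNA in the Flt1 level was not tested.

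Kdr and Flt4 had low levels in macrophages. Kdr had 42 UMIs in 39 control cells and 30 UMIs in 28 knockdown cells poor in tumour RNA, 1.97 CPM (1.42 to 2.67) and 2.09 CPM (1.41 to 2.98), a log2 ratio of 0.080 (-0.65 to 0.79). Flt4 had 8 and 13 UMIs there. In cleaned T cells Flt4 had 0 and 0 UMIs, which allows up to 1.62 and 2.13 CPM. Outside the endothelial gate Flt4 had 0 control and 8 knockdown UMIs in tumour-like cells, and Flt1 had 19 and 28.

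Nrp1, the co-receptor for VEGF and semaphorins, was higher in macrophages than in tumour-like cells, and its ratio between libraries had opposite signs in the 2 classes. Tumour-like cells had 32.3 CPM (31.2 to 33.4) in the control and 28.2 CPM (27.1 to 29.3) in the knockdown (log2 ratio -0.20, -0.27 to -0.12). Macrophages poor in tumour RNA had 136 CPM (131 to 141) and 167 CPM (161 to 174) (log2 ratio 0.30, 0.22 to 0.37). Over the full macrophage gate the values were 127 and 133 CPM (log2 ratio 0.069, -0.0046 to 0.14). Macrophages poor in tumour RNA thus had 4.20-fold (4 to 4.42) the tumour-like level in the control and 5.86-fold (5.54 to 6.20) in the knockdown library. At 2000 UMIs per cell, 22.5% (21.1 to 24) of control and 26.2% (24.5 to 27.9) of knockdown macrophages had an Nrp1 UMI, against 45.7% and 42.9% without thinning.

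Unlike Vegfa, Nrp1 was lower where hypoxia genes were high. Across the bins of tumour-like cells, lowest to highest, it went from 47.4 to 21.6 CPM in the control, 0.455-fold (0.407 to 0.507), and from 41.7 to 17.3 CPM in the knockdown, 0.415-fold (0.358 to 0.480). Across those of macrophages poor in tumour RNA it went from 158 to 97.4 CPM and from 188 to 112 CPM, 0.618-fold (0.537 to 0.711) and 0.599-fold (0.495 to 0.723). Nrp2 changed less: in tumour-like cells the fold was 0.939-fold (0.892 to 0.988) in the control and 0.777-fold (0.728 to 0.829) in the knockdown library. In the same macrophages it was 0.971-fold (0.768 to 1.23) and 1.19-fold (0.814 to 1.75), with intervals that held 1.

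In T cells the Nrp1 ratio depended on the cells let in. The full gate had 53.7 CPM (47 to 61.1) and 84.7 CPM (74.3 to 96.1) (log2 ratio 0.66, 0.39 to 0.92). Cleaned T cells had 79 CPM (66.7 to 92.9) and 86.5 CPM (71.9 to 103) (log2 ratio 0.13, -0.23 to 0.49), and these intervals overlap. Of their Nrp1 UMIs, 122 of 146 in the control and 103 of 122 in the knockdown lay in cells with Cd8a or Cd8b1. Those cells made up 388 of 588 and 317 of 485 cleaned T cells. Their Nrp1 level was 88.2 CPM (73.3 to 105) and 98.8 CPM (80.6 to 120). Being most of the cleaned T cells, they cannot be set against all of them, and the other cells were not measured apart. Foxp3 cells, the regulatory T cells known for Nrp1, numbered 19 and 17 in the full gate. They had 3 and 5 Nrp1 UMIs, 32.8 CPM (6.76 to 95.8) and 135 CPM (43.8 to 315), intervals too wide to place them against the gate. The macrophage marker list summed to 2672 and 3567 CPM in the full T cell gate, and to 483 and 375 CPM in the cleaned T cells. Its part in the Nrp1 level of either was not tested. At equal depth 11.3% (8.47 to 14.7) and 14.7% (11 to 19.1) of the cleaned T cells had an Nrp1 UMI.

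Nrp2, the co-receptor with affinity for Vegfc, was nearly equal between libraries in tumour-like cells. They had 124 CPM (122 to 126) and 120.1 CPM (118 to 122) (log2 ratio -0.045, -0.082 to -0.0074). The full macrophage gate had 53.2 and 71.1 CPM, a log2 ratio of 0.42 (0.31 to 0.53), while those poor in tumour RNA showed the opposite order, 45.9 CPM (43 to 48.9) and 35.7 CPM (32.7 to 38.9), a log2 ratio of -0.36 (-0.52 to -0.21). In cleaned T cells Nrp2 had 15 and 17 UMIs, 8.12 and 12.1 CPM, beside 9.12 and 6.62 CPM from tumour RNA alone.

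Counted together, 0 of the 6 members with at least 100 UMIs in 1 library differed by 1.5-fold in tumour-like cells outside the endothelial gate, where 2.21% of all genes so counted were higher by that much and 0.744% lower, 2.95% in all. With the endothelial cells left in, it was 0 of 7, where 2.27% were higher and 0.751% lower, 3.02% in all. In the full macrophage gate 3 of 7 were higher (Vegfa, Vegfc and Vegfd) and 1 was lower (Flt1), where 10.7% of 10773 genes were higher and 1.31% lower, 12% in all. That gate as a whole was shifted, with a median log2 ratio of 0.10 over all genes. After scaling to that median, 940.0 genes were higher and 236.0 lower, against 1150 and 141 before, and Vegfa was under 1.5-fold at 0.52. Without doublet removal Vegfa (0.45) and Vegfd (0.20) were also under it, as they were with C1q genes at 5 per 10000 (0.58 and 0.57), and Vegfa with every cell weighted equally (0.31) and Vegfd with Scrublet's own doublet threshold (0.52). Macrophages poor in tumour RNA had 0 of 5 members past 1.5-fold, where 1.26% of 9861 genes were higher and 1.74% lower, 3% in all. In the full T cell gate 1 of 5 members was higher (Nrp1), where 2.45% of 6113 genes were higher and 1.41% lower, 3.86% in all. That ratio was under 1.5-fold without doublet removal (0.50), with every cell weighted equally (0.45) and with C1q genes and Lyz2 under 5 per 10000 (0.23). In cleaned T cells 0 of 1 member passed, where 1.05% of 3225 genes were higher and 0.806% lower, 1.86% in all. After scaling the full T cell gate to its median of 0.046, 117.0 genes were higher and 123.0 lower, against 150 and 86 before.

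**Figure D4:**
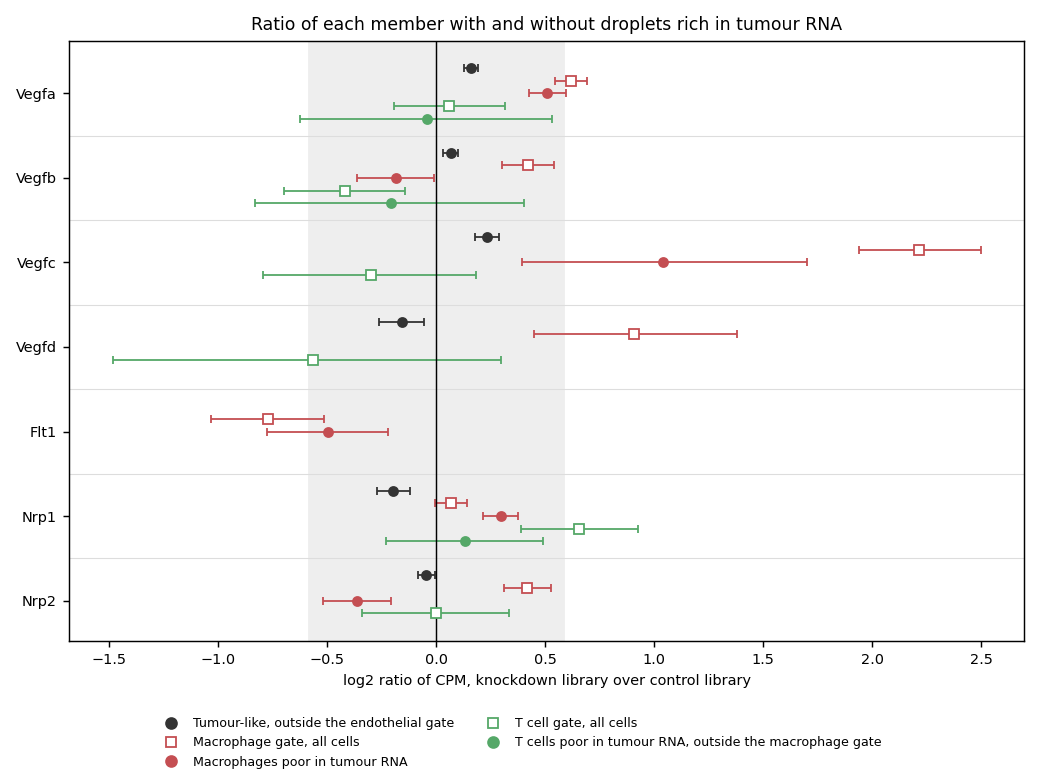
Log2 ratio of CPM, knockdown over control library (horizontal axis), for 7 members in full gates (open squares) and in the cells left after droplets rich in tumour RNA and endothelial cells are removed (filled circles), with 95% counting intervals; values resting on under 30 UMIs are left out and the grey band marks 1.5-fold. The macrophage ratios of Vegfb and Nrp2 lie on opposite sides of 0 in the full gate and in the cells poor in tumour RNA, while Vegfa stays above 0 in both, at 0.62 and 0.51.

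Within the tumour-like cells, the members were distributed differently over states. States were set by pairs of genes, at a summed level of at least 5 per 10000 UMIs, and a cell may be in several. The Krt16 and Klk8 state, of a keratin and a kallikrein, had 147 control and 22 knockdown cells. The Cryab and Krt14 state, of a small heat shock protein and a basal keratin, had 182 and 342. The Csmd3 and Robo2 state had 53 and 74 cells, and the Tnnt2 and Tafa5 state 59 and 36. A cycling state (Mki67 and Top2a) had 990 and 1199 cells. Because 70.9% of cells passed the rule for the matrix genes Col3a1 and Postn, which fibroblasts also express, the top 20% stood in, 930 and 1110 cells. Cells in no state numbered 2840 and 2679.

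Vegfa was high in the Cryab and Krt14 cells and in the Tnnt2 and Tafa5 cells. The former had 241 CPM (226 to 257) in the control library, 1.65-fold (1.55 to 1.77) the level of cells in no state (146 CPM), and the latter 237 CPM (211 to 266), 1.63-fold (1.44 to 1.83). In the knockdown library the Cryab and Krt14 cells had less, 193 CPM (182 to 204) (log2 ratio -0.32, -0.45 to -0.20), while cells in no state had more, 164 CPM (0.17, 0.12 to 0.21). The Tnnt2 and Tafa5 cells had 222 CPM (188 to 261), overlapping the control. The Krt16 and Klk8 cells had 111 CPM (100.1 to 122) in the control and 208 CPM (164 to 260.5) in the knockdown library, the latter from 77 UMIs. Cycling cells had 139 and 161 CPM.

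Vegfc was high in the matrix cells and low in the Krt16 and Klk8 cells of the control library. The Col3a1 and Postn cells there had 83.4 CPM (78.7 to 88.4), 1.79-fold (1.67 to 1.92) the 46.7 CPM of cells in no state. The Csmd3 and Robo2 cells had 93.1 CPM (72.8 to 117), 1.99-fold (1.56 to 2.52) that level, and 75.7 CPM (58.8 to 96) in the knockdown library, 1.22-fold (0.948 to 1.56) its cells in no state. In the control library the Krt16 and Klk8 cells had 14.2 CPM (10.6 to 18.6). The 22 Krt16 and Klk8 cells of the knockdown library had 62.3 CPM (39.5 to 93.4) from 23 UMIs, 1.01-fold (0.637 to 1.51) the level of cells in no state. In the knockdown library the matrix cells had 69.4 CPM (65.1 to 73.8), a log2 ratio of -0.27 (-0.39 to -0.14), and cells in no state had 61.9 CPM (59.6 to 64.2), a ratio of 0.41 (0.33 to 0.48). Matrix cells thus differed less from those in no state there, 1.12-fold (1.04 to 1.21).

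Vegfd was highest in the Krt16 and Klk8 cells of the control library, at 56.1 CPM (48.7 to 64.3) from 206 UMIs in 95 of 147 cells, 3.57-fold (3.05 to 4.15) the 15.7 CPM of cells in no state. The 22 knockdown cells of that state had 6 UMIs, 16.2 CPM (5.96 to 35.3). Without that state the log2 ratio of Vegfd over tumour-like cells was -0.036 (-0.14 to 0.069) in place of -0.16. Vegfb stood between 100.2 and 156 CPM over all states and both libraries.

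Nrp1 and Nrp2 had different orders over states. Matrix cells had 65.9 CPM (61.8 to 70.3) of Nrp1 in the control and 47.8 CPM (44.3 to 51.5) in the knockdown library (log2 ratio -0.46, -0.61 to -0.32). That was 2.11-fold (1.95 to 2.29) and 1.79-fold (1.63 to 1.97) the level of cells in no state. Krt16 and Klk8 cells had 3.54 CPM (1.89 to 6.06) of Nrp1 in the control library, and Cryab and Krt14 cells had 10.1 and 12.3 CPM. Nrp2 was instead above the cells in no state (118 CPM) in both of these control states, at 167 CPM (154 to 180.5) and 161 CPM (149 to 174). The knockdown Krt16 and Klk8 cells had 111 CPM (79.6 to 151) of Nrp2, 0.941-fold (0.675 to 1.28) the level of cells in no state. Matrix cells, high in Nrp1, were also above cells in no state for Nrp2 in the control library, 1.13-fold (1.07 to 1.19).

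**Figure D5:**
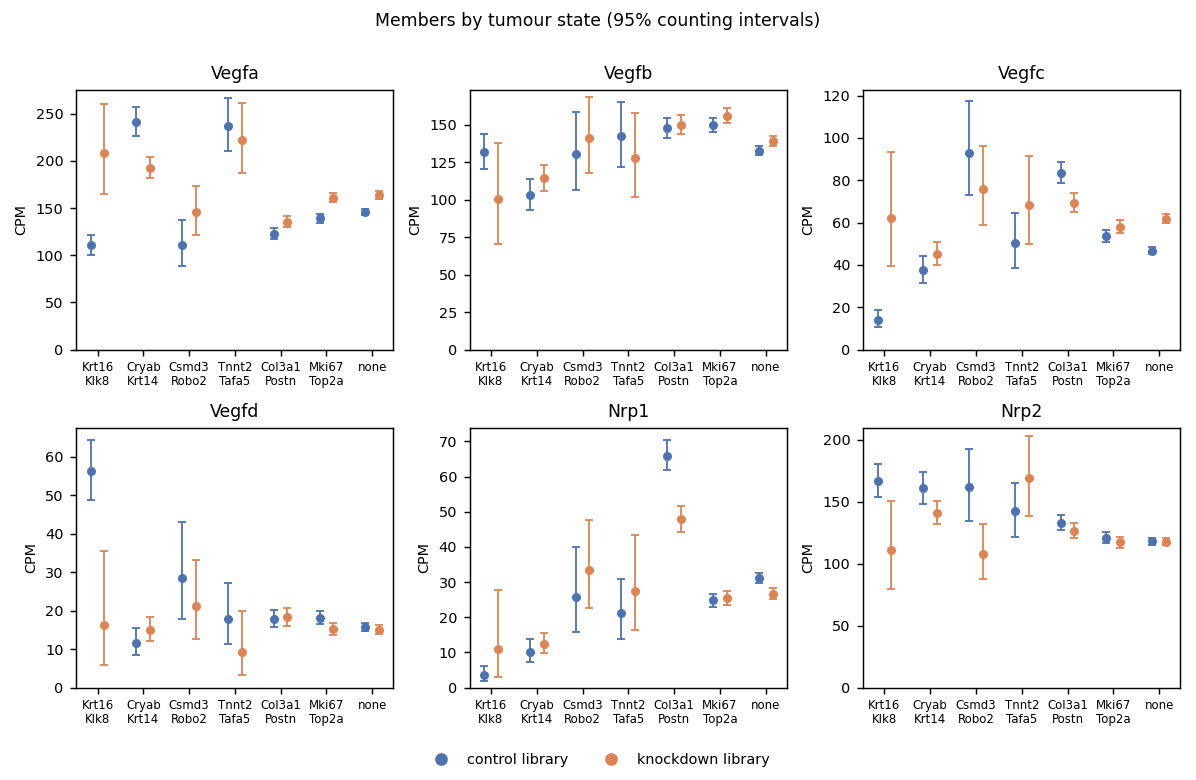
Level (CPM, vertical axis, with 95% counting intervals) of 6 members in the tumour states, named by the gene pair that sets each, for each library; none marks cells in no state. In the control library Vegfa reaches 241 CPM in the Cryab Krt14 cells, Vegfd 56.1 CPM in the Krt16 Klk8 cells, and Nrp1 65.9 CPM in the Col3a1 Postn cells.

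Other genes that act on vessels or share the neuropilins were counted with the same rule. For all genes counted in tumour-like cells outside the endothelial gate, 2.21% were higher by 1.5-fold and 0.744% lower, with a median of 0.041. In tumour-like cells outside the endothelial gate, 2 of 8 other angiogenic ligands were higher by 1.5-fold in the knockdown library and 0 lower, with a median log2 ratio of 0.28. They were Pdgfc, a platelet-derived growth factor, at 2.72 and 6.91 CPM (1.35, 1.14 to 1.56), and Angpt1, the ligand of the endothelial receptor Tek, at 1.54 and 3.83 CPM (1.32, 1.04 to 1.60). With the endothelial cells of the gate left in, Apln and Pdgfb also passed, for 4 of 9, where 2.27% of all genes were higher. Among angiogenesis inhibitors, 1 of 6 was higher and 1 lower, with a median of 0.15. Thbs1, which blocks endothelial growth, stood at 2.83 and 4.34 CPM (0.62, 0.39 to 0.84). Timp3, an inhibitor of metalloproteinases that also blocks Kdr, stood at 10.5 and 3.43 CPM (-1.61, -1.80 to -1.43).

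Of the semaphorins and plexins that share the neuropilins, 2 of 6 were higher by 1.5-fold in knockdown tumour-like cells and 0 lower, with a median of 0.23, beside 2.21% higher and 0.744% lower of all genes. Sema3c stood at 19.3 and 44.6 CPM (1.21, 1.13 to 1.29) and Sema3a, the classical Nrp1 ligand, at 23.9 and 36.7 CPM (0.62, 0.54 to 0.69). Among macrophages poor in tumour RNA, where 1.26% of all genes were higher by 1.5-fold and 1.74% lower (median -0.0010), 0 of 3 passed, with Plxna4, a plexin that pairs with Nrp1, at 20.1 and 29.1 CPM (0.53, 0.34 to 0.73) and Plxnd1 at 11.9 and 8.42 CPM (-0.50, -0.82 to -0.18). In those macrophages Thbs1 was the 1 of 3 inhibitors that passed, at 37 and 58 CPM (0.65, 0.51 to 0.79), and 0 of 4 other angiogenic ligands did. Of the genes that carry the signal of VEGF receptors, 0 of 16 differed by 1.5-fold in tumour-like cells, 0 of 14 in these macrophages and 0 of 8 in cleaned T cells, where 2.95%, 3% and 1.86% of all genes did in either direction, with medians of 0.011, -0.030 and 0.028.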

How the data were processed

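The deposited values are UMI counts per gene and cell for 2 libraries. Per the file headers the matrices were written by Cell Ranger 6.1.0, while the submitters' processing notes name Cell Ranger 3.1.0; the genome build is not given in the sources used here. The control library held 11977 cells (median 10312 UMIs) and the knockdown library 12853 (median 7496), and 37 barcodes occur in both. Cells with under 200 detected genes (34 and 19) or over 20% mitochondrial UMIs (164 and 72) were left out, and doublets were removed by rank of Scrublet score at 0.8% per 1000 cells (1148 and 1322). CPM is summed UMIs of a gene over all UMIs of the same cells. Intervals are exact Poisson for CPM, exact conditional binomial for ratios and Clopper-Pearson for shares, at 95%, for counting error only. For a CPM of 0, up to 3 counts are allowed. With 1 library per group no test was run. A cell may pass more than 1 gate: 126 cells in each library passed both the macrophage and T cell gates. The members and gene lists were chosen with earlier results of these data known. Named genes are the 9 members and the 2 highest and 2 lowest ratios of each list among genes with at least 100 UMIs in 1 library; Apln, Pdgfb, the gate and marker genes were named after their values were seen. The 20 tumour-enriched genes and the cut at 25% were chosen after seeing the data, with 76 control and 103 knockdown macrophages near the cut. Results that rest on 1 split of the macrophages, and the correlations that use it, are not reported here. Alternatives covered the filters, gates, doublet removal, scaling and weighting of cells. The code was tested on simulated data. Python 3.11.15, numpy 2.4.6, scipy 1.17.1, pandas 2.3.3, scanpy 1.11.5 and matplotlib 3.10.9 were used.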

Additional observations from a re-analysis of the deposited data

Results flagged for a closer look

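Vegfb and Nrp1 lay on opposite sides of 0 in tumour-like cells outside the endothelial gate and macrophages poor in tumour RNA, with counting intervals that excluded 0 in both. Vegfb had a log2 ratio, knockdown over control, of 0.066 in tumour-like cells outside the endothelial gate and -0.18 in macrophages poor in tumour RNA. Nrp1 had -0.20 in the former and 0.30 in the latter. The Vegfb interval in tumour-like cells held 0 with median-of-ratios scaling (0.024, -0.011 to 0.058) and with Lyz2 at 0 (0.036, -0.029 to 0.10), and the median over all genes there was 0.041. Over the full macrophage gate Vegfb was at 0.42, on the same side as in tumour-like cells, and the Nrp1 interval held 0 (0.069, -0.0046 to 0.14). The difference between the classes was not tested, since each group had 1 library. Tumour RNA at the level of the 20 tumour-enriched genes would bring 5.55 and 6.36 CPM of Vegfb, and 1.31 and 1.26 CPM of Nrp1, to the control and knockdown macrophages. These cells were chosen for a low level of the same genes, so the figures may be too low. The part of tumour RNA in either ratio was not tested.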

How the results depend on the processing

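No paired analysis was possible because each group has 1 library and the labels give no replicate numbers. Of 209 alternative values for 19 ratios, 150 stayed within the counting interval of the reported value, 53 moved beyond it and 6 changed the sign of a ratio whose interval excluded 0. Another 13 values changed the sign of a ratio whose interval held 0 (Vegfa, Vegfc and Nrp2 in T cells and Nrp1 in macrophages), and are counted among the 150 or the 53 by their size. Alternatives that leave out cells rich in tumour RNA, leave out the endothelial gate, or use Scrublet's own doublet threshold were chosen after seeing the data. All values here are log2 ratios, knockdown over control, over the full gate unless said.

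Of the ratios whose interval excluded 0, the sign changed for Nrp2, Vegfb and Vegfd. Nrp2 in tumour-like cells went from -0.044 to 0.034 with Lyz2 at 0. In macrophages poor in tumour RNA, and in those under 10% of the tumour-like level, Vegfb became -0.18 and -0.19 and Nrp2 -0.36 and -0.43, and Vegfd became -0.056 in the former and 0.21 in the latter. Vegfa in tumour-like cells was 0.12 with median-of-ratios scaling and 0.25 with Lyz2 at 0. Vegfa in macrophages was 0.45 without doublet removal, 0.45 without any filter, 0.52 with median-of-ratios scaling, 0.31 with every cell weighted equally, 0.76 in cells of at least 5000 UMIs, 0.51 in cells poor in tumour RNA and 0.50 in those under 10%; it stayed above 0 in all of these, and fell under 1.5-fold in all but the cells of at least 5000 UMIs.

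Vegfc in macrophages was 0.92 without doublet removal, 0.91 without any filter, 1.07 with cells weighted equally, 1.70 and 2.65 with C1q genes at 5 and 20 per 10000, 2.70 at 5000 UMIs, 1.04 in cells poor in tumour RNA, 0.72 under 10% and 1.83 with Scrublet's threshold. Vegfd there was 0.20 without doublet removal and 0.20 without any filter. Flt1 in macrophages was -0.50 in cells poor in tumour RNA. In T cells, leaving out cells of 2 gates gave -0.34 for Vegfa and 0.23 for Nrp1, and C1q and Lyz2 under 5 per 10000 gave -0.25 and 0.23; T cells poor in tumour RNA and outside the macrophage gate gave 0.13 for Nrp1. The cause was not tested beyond the removal of those cells. Another 26 values moved beyond the counting interval of the reported one, among them Vegfd in tumour-like cells, at -0.036 without the Krt16 and Klk8 state. Depth limits Kdr and Flt4, with at most 105 and 38 UMIs in a library.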

Other observations

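The droplets of the macrophage gate that were rich in tumour RNA were also measured apart. Vegfa stood at 134 CPM (121 to 149) in the control and 198 CPM (188 to 208) in the knockdown library. The control value lay between tumour-like cells (145 CPM) and macrophages poor in tumour RNA (104 CPM), and the knockdown value above both (162 and 149 CPM). Vegfc stood at 37.7 CPM (30.6 to 46.1) and 69 CPM (63.1 to 75.3), against 51.8 and 61 CPM in tumour-like cells, and Nrp1 at 46 and 65.9 CPM. The median depth of these droplets was 990 UMIs in the control and 3233.5 UMIs in the knockdown library.

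Cells outside the macrophage, T cell, tumour-like and endothelial gates held 7.50% and 7.23% of the Vegfa UMIs, 6.03% and 6.32% of the Vegfb UMIs and 7.89% and 9.49% of the Vegfc UMIs in the control and knockdown libraries. NK cells (39 and 47) had 129 and 119.6 CPM of Vegfa from 35 and 34 UMIs. Droplets rich in tumour RNA were not left out of these small classes, and their part in these levels was not tested. Monocytes (152 and 78) had 96.9 CPM (78.1 to 119) and 68.4 CPM (48.8 to 93.1) of Vegfa, and 16 and 3 Flt1 UMIs. Dendritic cells (35 and 29) had 15 Flt1 UMIs in 3 control cells and none in the knockdown library.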
